A study of Sus scrofa with 18 samples.

Results

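The fibrillar collagen chains are the polypeptides that assemble into the banded fibrils of connective tissue. The 7 chain genes described here, COL1A1, COL1A2, COL3A1, COL5A1, COL5A2, COL5A3 and COL11A1, were found by gene name among the 27883 loci of the deposited table, and where a name stood on several loci the one with the highest mean FPKM (read fragments scaled to transcript length and library size) was taken. Backfat at the thickest point of the shoulder was sequenced after removal of ribosomal RNA from 18 castrated male Ningxiang pigs, a Chinese breed known for its fat carcass, with 3 pigs at each of 6 ages from 60 to 360 days, spaced by 60 days. The labels name no agent and no control group, so each age is set against the other ages. The 3 pigs of an age were full sibs, while pigs of different ages shared a single parent, hence age and litter cannot be told apart.

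Type I collagen, the main component of fibrils in most connective tissues, is built from a pair of α1 chains (COL1A1) and a single α2 chain (COL1A2). Type III collagen is made of α1(III) chains alone (COL3A1) and mixes with type I in stretchable tissues. Types V (COL5A1, COL5A2, COL5A3) and XI (COL11A1) are minor fibril components that start fibril assembly and limit fibril width, type V in soft tissues and type XI mainly in cartilage. In fat these chains form part of the matrix that surrounds adipocytes, vessels and septa, and fibroblasts and adipocyte progenitors are a main source.

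All 7 chains had a locus that was kept for testing, which required 0.5 FPKM or more in 3 or more libraries and left 19470 loci. On Sscrofa11.1, COL1A1 lies on chromosome 12 from 26379000 to 26397284 (minus strand) and COL1A2 on chromosome 9 from 74174220 to 74210414 (plus strand). COL3A1 lies on chromosome 15 from 93556914 to 93596608 (plus strand), beside COL5A2 from 93609958 to 93843645 (minus strand). COL5A1 lies on chromosome 1 from 273933805 to 274085519 (plus strand), COL5A3 on chromosome 2 from 68828197 to 68869943 (minus strand) and COL11A1 on chromosome 4 from 115638098 to 115841675 (plus strand). The loci of COL3A1 and COL5A3 each carry a microRNA in addition to the protein-coding gene. A further 4 loci on the opposite strand carry the name COL5A2 with means of up to 3.84 FPKM, so the COL5A2 value could be affected by how reads were divided between strands.

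Total counts were between 74077094 and 84236689 per library. Adipocyte genes were abundant in every library (the summed level of 7 of 7 listed markers was 599 to 995 FPKM). Genes of the Y chromosome (4 loci, summed) were at 128.2 to 277.8 CPM (counts scaled to a fixed library total) in 11 libraries but at 0.226 to 13.05 CPM in 7, namely 60 days replicates 1 and 3, 120 days replicate 2, 180 days replicates 1, 2 and 3 and 300 days replicate 2, although the methods describe castrated males. Skeletal muscle markers (5 of 7 listed were in the table) summed to 341 FPKM in 180 days replicate 1, 177 FPKM in 120 days replicate 2, 33.3 FPKM in 240 days replicate 1 and at most 12.4 FPKM elsewhere. Because whole tissue was sequenced, fewer cells of a type and less RNA per cell cannot be told apart.

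The 7 chains together took between 0.786% of all counts (240 days replicate 2, 95% Wilson interval 0.784 to 0.788) and 4.95% (120 days replicate 1, 4.94 to 4.95), and these intervals cover counting error only. On the FPKM scale, which is per length, the order of the mean levels over 18 libraries was led by COL3A1, followed by COL1A1 and COL1A2, then COL5A3, COL5A1 and COL5A2, with COL11A1 last. The order of COL5A1 and COL5A2 depends on this scaling to length, since COL5A2 had the higher count in each library. The spread between libraries differed widely among chains. The highest library exceeded the lowest 9.99-fold for COL1A1, 9.05-fold for COL1A2, 5.98-fold for COL3A1, 4.78-fold for COL5A1 and 3.40-fold for COL5A2, but 1.97-fold for COL5A3.

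**Figure D1:**
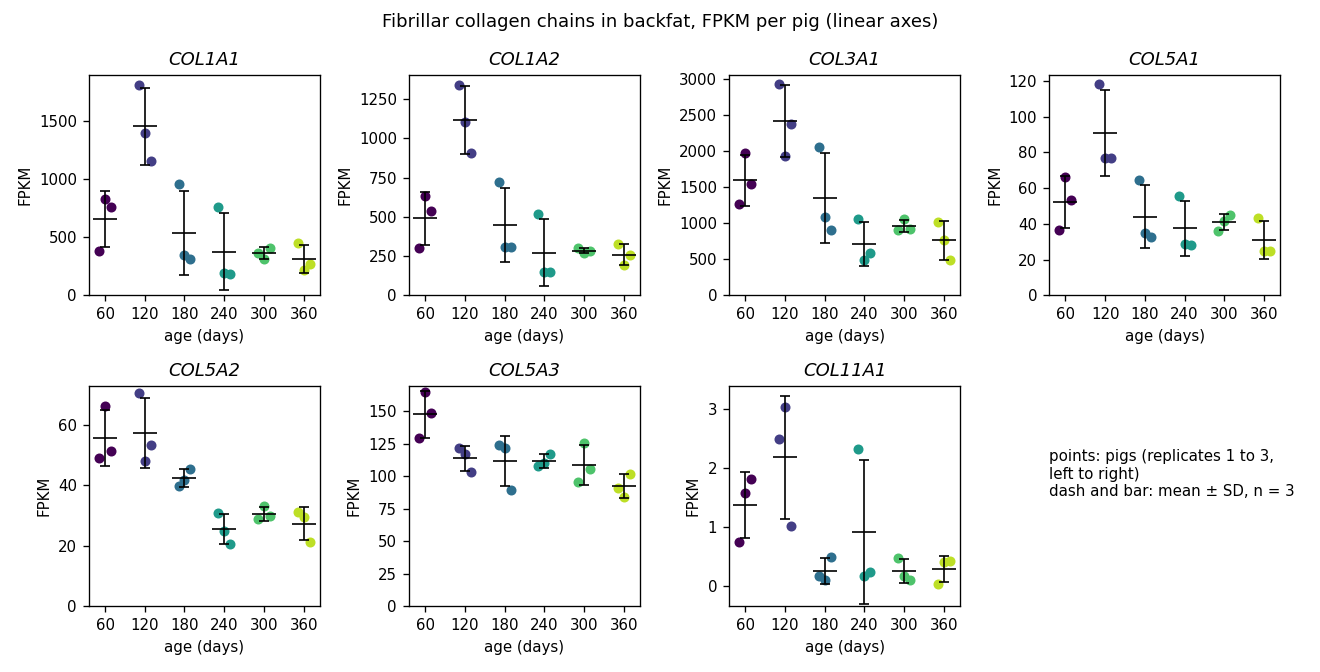
FPKM of each chain (y, linear) in each pig against age in days (x), where points are the replicates of an age and the dash with its bar is the mean ± SD of 3 pigs. COL1A1, COL1A2 and COL5A1 were higher in all 3 pigs of 120 days than in any other pig, COL5A3 was highest at 60 days, and COL11A1 was near 0 in most pigs after 120 days apart from 240 days replicate 1.

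COL1A1, which encodes the α1 chain of type I collagen, was at 385, 828 and 759 FPKM in the 3 pigs of 60 days and at 1805, 1393 and 1154 FPKM in those of 120 days. It was at 955, 349 and 313 FPKM at 180 days, 756, 189 and 181 FPKM at 240 days, 368, 314 and 411 FPKM at 300 days and 447, 222 and 272 FPKM at 360 days. All pigs of 120 days lay above every other pig, whereas the neighbouring ages in the order of means overlapped from 60 days on. The stage mean was 1451 ± 329 FPKM (SD, n = 3) at 120 days and 657 ± 238 FPKM (SD, n = 3) at 60 days. At 180 and 240 days replicate 1 stood above its full sibs, at 3.05 and 4.18 times the lowest sib. The same pigs stood above their sibs in skeletal muscle markers, at 341 FPKM against 3.85 and 1.77 at 180 days and at 33.3 FPKM against 1.53 and 1.59 at 240 days. Tendon markers were at 5.88 FPKM in replicate 1 of 240 days against 1.02 and 1.15 in its sibs. At 180 days they were at 1.09 FPKM in replicate 1 against 0.878 and 1.49. The part of muscle or tendon in the chain levels was not tested.

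COL1A2, the partner chain, took a similar course. It was at 301, 632 and 539 FPKM at 60 days, 1340, 1104 and 906 FPKM at 120 days, 722, 310 and 311 FPKM at 180 days, 521, 148 and 149 FPKM at 240 days, 301, 271 and 283 FPKM at 300 days and 330, 193 and 259 FPKM at 360 days. The pigs of 120 days were again above all others, and the high pig at 180 days and that at 240 days were those that were high in COL1A1.

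COL3A1, the chain of type III collagen, was the most abundant of the 7 chains in each library. It was at 1266, 1971 and 1548 FPKM at 60 days, 2927, 1936 and 2368 FPKM at 120 days, 2059, 1090 and 903 FPKM at 180 days, 1053, 496 and 588 FPKM at 240 days, 909, 1054 and 917 FPKM at 300 days and 1020, 774 and 489 FPKM at 360 days. The means fell from 2410 ± 497 FPKM (SD, n = 3) at 120 days to 712 ± 299 FPKM (SD, n = 3) at 240 days. Unlike the type I chains, COL3A1 at 120 days overlapped other ages, since replicate 2 lay below the highest pigs of 60 and 180 days.

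The 3 chains of type V collagen did not share 1 pattern. COL5A1, the α1(V) chain, was at 36.9, 66.1 and 53.5 FPKM at 60 days, 118.5, 76.7 and 76.9 FPKM at 120 days, 64.6, 34.8 and 32.9 FPKM at 180 days, 55.5, 28.7 and 28.4 FPKM at 240 days, 36.2, 41.6 and 45.3 FPKM at 300 days and 43.6, 24.8 and 24.8 FPKM at 360 days. As for the type I chains, all pigs of 120 days were above the other 15. COL5A2, the α2(V) chain, was at 49.2, 66.3 and 51.5 FPKM at 60 days, 70.6, 48.2 and 53.3 FPKM at 120 days, 39.9, 41.8 and 45.6 FPKM at 180 days, 30.9, 25.1 and 20.8 FPKM at 240 days, 28.8, 33.3 and 29.8 FPKM at 300 days and 31.3, 29.6 and 21.2 FPKM at 360 days. The ages of 60 and 120 days overlapped for COL5A2, 180 days lay below 60 days without overlap, and the 9 pigs from 240 days on lay below all 9 younger pigs.

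COL5A3, the α3(V) chain, varied least. It was at 129.0, 164.9 and 148.6 FPKM at 60 days, 121.3, 117.2 and 103.1 FPKM at 120 days, 123.9, 122.0 and 89.4 FPKM at 180 days, 107.5, 110.3 and 117.4 FPKM at 240 days, 95.5, 125.7 and 105.6 FPKM at 300 days and 90.9, 83.9 and 102.0 FPKM at 360 days. The 3 pigs of 60 days (mean 147.5 ± 17.98 FPKM, SD, n = 3) were above all others, and every later age overlapped its neighbour in the order of means. COL11A1, a chain best known from cartilage, was at 0.751, 1.58 and 1.81 FPKM at 60 days and 2.49, 3.04 and 1.03 FPKM at 120 days. In the later ages it was between 0.0279 and 0.496 FPKM, except for 2.32 FPKM in 240 days replicate 1. Its counts were between 19 and 2248 per library, and it reached 0.5 FPKM in 7 libraries.

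The first comparison asked how backfat at 120 days differed from the mean of the other 5 ages. Both type I chains, COL3A1 and COL5A1 rose, COL5A2 was higher by less than the fold required, and the COL5A3 estimate was near 0. A locus was called in the quasi-likelihood test of edgeR when its adjusted p (Benjamini-Hochberg over 19470 loci) was at most 0.05 and its absolute log2 fold change at least 1. On this rule 4 of 7 chains were called, all higher, while 0.94% of all loci were called (0.709% higher).

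COL1A1 was higher by a log2 fold change of 1.73 ± 0.36 (SE, edgeR adjusted p = 0.0268) and COL1A2 by 1.70 ± 0.31 (SE, edgeR adjusted p = 0.0141). COL3A1 was higher by 1.22 ± 0.24 (SE, log2 fold change, edgeR adjusted p = 0.0184) and COL5A1 by 1.14 ± 0.23 (SE, log2 fold change, edgeR adjusted p = 0.0236). These are the chains of the interstitial fibril and its nucleator. COL5A2 passed the adjusted p but not the fold, with a log2 fold change of 0.71 ± 0.13 (SE, edgeR adjusted p = 0.0140). COL5A3 had a log2 fold change of -0.01 ± 0.12 (SE, edgeR adjusted p = 0.981), an estimate that turned to 0.01 when limma was applied to log2 FPKM. COL11A1 had the largest estimate of the 7, 2.19 ± 0.67 (SE, log2 fold change), and did not pass (edgeR adjusted p = 0.105).

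The call at 120 days depended on few pigs. No chain was called without replicate 1 or without replicate 3 of 120 days, only COL3A1 was called without replicate 2, and 5 chains were called without 240 days replicate 1. With the 7 libraries of low Y-linked level left out, which leaves no pig of 180 days, the log2 fold changes were 1.72 (COL1A1), 1.71 (COL1A2), 1.40 (COL3A1) and 1.20 (COL5A1), and 0 of 7 chains were called (edgeR adjusted p between 0.0889 and 0.179 for these chains). COL1A1, COL1A2 and COL5A1 were among the genes that the study itself selected on these libraries for this age, so their rise is not independent evidence. The study also reported QPCR of these genes with a trend like that of its RNA-seq, which was not examined here.

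**Figure D2:**
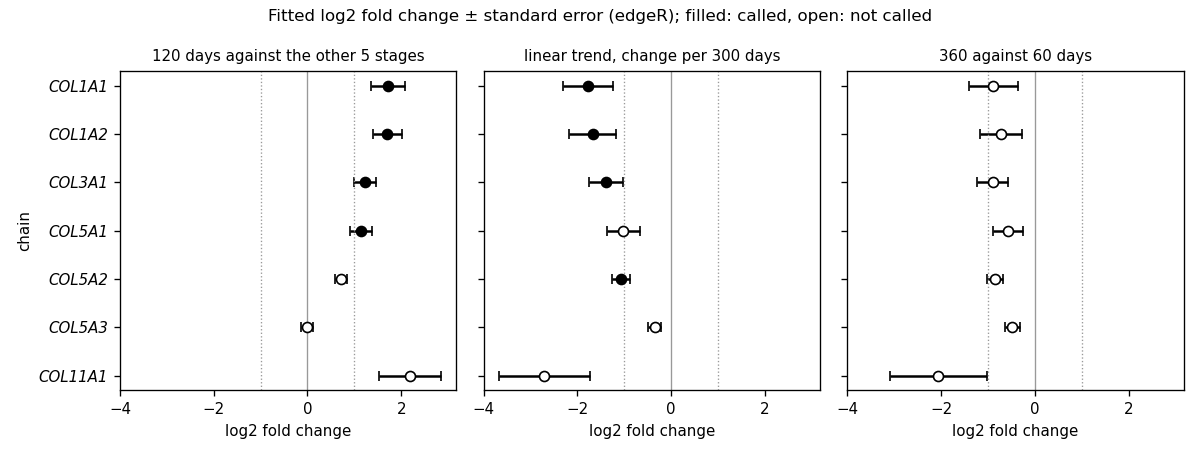
Fitted log2 fold change (x) of each chain (y) with its standard error from edgeR, for 120 days against the other 5 ages, for the linear trend as the change per 300 days, and for 360 against 60 days. Filled points passed both thresholds (dotted lines mark a log2 fold change of 1 and -1), which 4 chains did at 120 days and 4 along age, but none did between 60 and 360 days.

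Markers of fibroblasts and progenitors were higher at 120 days as a sum, though not each of them. The summed level of 9 of 9 listed markers was 345, 214 and 287 FPKM in the 3 pigs of 120 days and 121 to 210 FPKM in the other 15, without overlap, and none of the 9 was at 0 on average. DCN was the largest part of this sum at 120 days, with a mean of 128 FPKM. Of the 9 markers, 6 had estimates above 0, with a median log2 fold change of 0.49. THY1, DPT and DCN were called higher, with log2 fold changes of 1.13, 1.51 and 1.02. In contrast PDGFRA and PDGFRB, receptors that define mesenchymal cells, had -0.20 and -0.07. Adipocyte markers summed to 603 to 733 FPKM at 120 days, within the range of the other ages. Their median log2 fold change was -0.25, with 1 of 7 estimated higher and 0 called. Endothelial markers (5 of 5 in the table, none at 0 on average) summed to 78.6 to 80.1 FPKM at 120 days and to 87.8 to 122 FPKM in the other 15 pigs, without overlap, with a median log2 fold change of -0.51 and 0 of 5 called, since CDH5 and VWF passed the adjusted p but not the fold. Skeletal muscle markers had a median log2 fold change of 2.69, with 0 of 5 called and an unadjusted p under 0.05 in 5, and stood at 2.66, 177 and 11.6 FPKM in the 3 pigs of 120 days. Tendon markers stood at 5.69, 4.92 and 2.85 FPKM in these pigs, with a median log2 fold change of 0.79 and 0 of 3 called. The part of cell composition in the rise of the chains was not tested, nor was that of muscle or tendon.

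Age as a line was the second comparison, expressed as the change per 300 days over 18 libraries. The type I chains, COL3A1 and COL5A2 fell with age, and the other 3 chains had negative estimates that did not pass. With 4 of 7 chains called, all lower, the background was 4.79% of loci (2.23% lower). COL5A2 had the smallest p, and fell by 1.08 ± 0.19 (SE, log2 fold change, edgeR adjusted p = 0.00185). COL3A1 fell by 1.39 ± 0.36 (SE, log2 fold change, edgeR adjusted p = 0.0164), COL1A1 by 1.78 ± 0.54 (SE, edgeR adjusted p = 0.0351) and COL1A2 by 1.68 ± 0.51 (SE, edgeR adjusted p = 0.0338). COL5A1 had -1.02 ± 0.35 (SE, log2 fold change, edgeR adjusted p = 0.0593), COL5A3 -0.35 ± 0.13 (SE, edgeR adjusted p = 0.0824) and COL11A1 -2.71 ± 0.97 (SE, edgeR adjusted p = 0.0705).

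The decline did not have the same shape in the 4 called chains, and their calls rested on the pigs of 120 days. Without the 3 libraries of that age, 0 of 7 chains were called, with a log2 fold change of -0.91 for COL5A2 (edgeR adjusted p = 0.00924), -0.94 for COL3A1 (adjusted p = 0.0777), -0.95 for COL1A1 (adjusted p = 0.202) and -0.84 for COL1A2 (adjusted p = 0.201). COL5A2 thus kept an adjusted p under 0.05 but not the fold. The count was 1 of 7 without 120 days replicate 1, 2 without 120 days replicate 2 or 3 or without 360 days replicate 2 or 3, and 1 (COL5A2) without the 7 libraries low in Y-linked genes. These p-values treat the libraries as independent, although pigs of an age are full sibs, so they can be too small.

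Between single ages no chain was called in edgeR, whereas the study counted COL1A1, COL1A2 and COL5A1 among its differentially expressed genes. It compared adjacent ages with edgeR at the same thresholds, and the source of this difference was not tested. At 360 against 60 days 5.11% of all loci and 0 of 7 chains passed, with an unadjusted p under 0.05 in 3 chains. DESeq2 also called 0 chains, while limma on log2 FPKM called COL3A1 and COL5A2 and edgeR with a covariate for the Y-linked level called COL5A2. Here COL5A2 had a log2 fold change of -0.85 ± 0.18 (SE, edgeR adjusted p = 0.00796). COL3A1 had -0.90 ± 0.33 (SE, log2 fold change, edgeR adjusted p = 0.0895) and COL5A3 -0.48 ± 0.16 (SE, edgeR adjusted p = 0.0619). The type I chains had -0.89 (COL1A1) and -0.73 (COL1A2) with adjusted p of 0.289 and 0.314. At 60 days against the other 5 ages 0 of 7 chains were called in edgeR, DESeq2 and limma (2.18% of loci in edgeR), with an unadjusted p under 0.05 in 2 chains, and COL5A2 had a log2 fold change of 0.55 ± 0.13 (SE, edgeR adjusted p = 0.0210).

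From 60 to 120 days 0 of 7 chains passed in edgeR, DESeq2 and limma, where 0.231% of loci did in edgeR, and 3 chains had an unadjusted p under 0.05. For this step the study reported more genes at the same thresholds than passed here. COL1A1 and COL1A2 had log2 fold changes of 1.23 ± 0.53 and 1.27 ± 0.46 (SE, edgeR adjusted p = 0.334 and 0.239), and COL5A2 0.13 ± 0.17 (SE, adjusted p = 0.812). From 120 to 180 days 0% of loci and no chain passed in edgeR, and none in DESeq2 or limma, while 2407 loci and 6 of the 7 chains had an unadjusted p under 0.05. The estimates there were negative for all chains, with -1.42 for COL1A1, -1.31 for COL1A2, -1.03 for COL5A1 and -3.09 for COL11A1 (log2 fold changes, edgeR adjusted p between 0.204 and 0.278). In the 3 later steps 0% of loci passed in edgeR and 0 chains in edgeR, DESeq2 or limma, with an unadjusted p under 0.05 for 2 chains at 240 against 180 days and for 0 in the last 2 steps. The lowest unadjusted p among chains in these steps was that of COL5A2 at 240 against 180 days, with a log2 fold change of -0.69 ± 0.17 (SE, edgeR adjusted p = 0.260), followed by COL3A1 with -0.90 ± 0.33 (SE, adjusted p = 0.405).

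Ratios between chains compare genes within a library, where depth cancels. The length that the deposited FPKM implies was the same in all libraries for each pair of abundant chains. Relative to COL1A1 it was 1.04 for COL1A2, 0.90 for COL3A1, 1.63 for COL5A1, 2.96 for COL5A2 and 1.01 for COL5A3. For a pair of abundant chains a ratio of FPKM is thus the ratio of counts times a constant. The change of such a ratio between ages does not depend on length. In the ratio of summed type V to summed type I chains, however, these lengths weight each chain. For each of 9 ratios the mean log2 ratio of the 3 libraries of an age (60, 120 and 360 days) was set against the other 15 in a 2-sided exact permutation test over all 816 choices, with Benjamini-Hochberg adjustment over 27 tests. Full sibs count as independent in this test too, and its p-values may thus be too low. Of the 27 tests 3 passed, all at 120 days. Each of these 3 ratios contains COL1A1, COL1A2 or COL5A1, which were called higher at 120 days and selected by the study on these libraries. They restate the differences between the fold changes above and are not separate evidence.

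**Figure D3:**
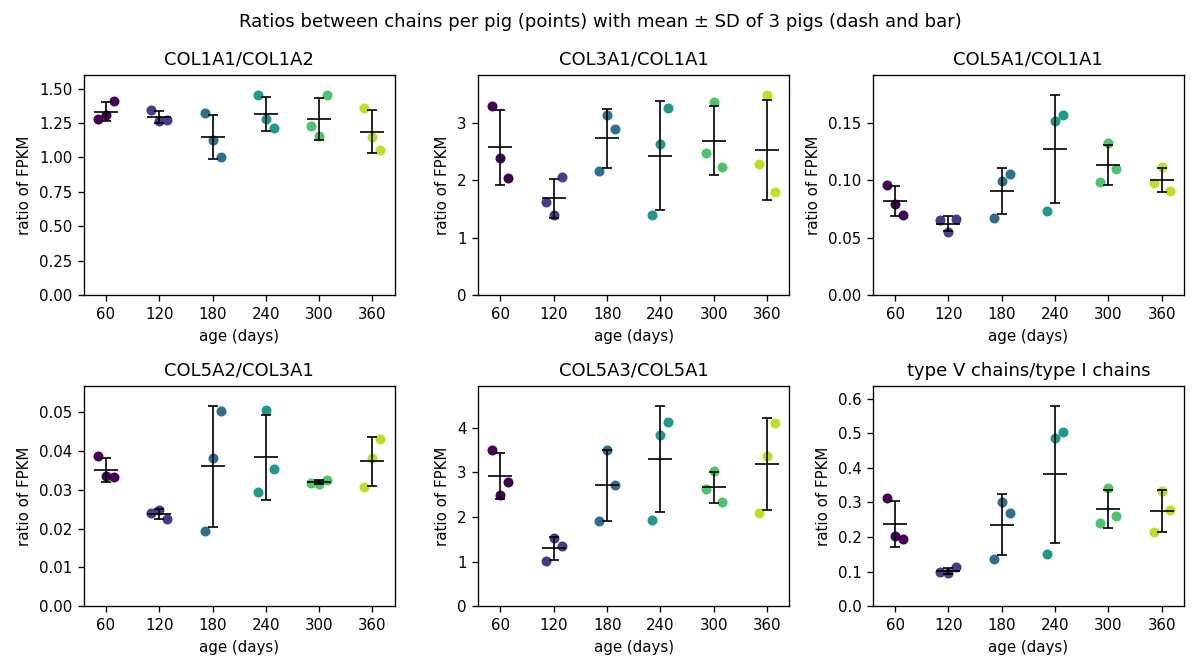
Ratios of FPKM between chains (y, linear, from 0) in each pig against age in days (x), with the mean ± SD of 3 pigs as dash and bar. COL1A1 to COL1A2 lay between 1.01 and 1.45 at all ages, and the ratios with type V chains over type I chains, COL5A1 over COL1A1 and COL5A3 over COL5A1 were lowest in the 3 pigs of 120 days.

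The ratio of the type I chains to each other varied least of the 9. In FPKM COL1A1 was 1.01 to 1.45 times COL1A2 over the 18 libraries (median 1.28), a 1.44-fold span where the chains themselves spanned 9.99- and 9.05-fold. The stage means were 1.33, 1.29, 1.15, 1.31, 1.28 and 1.19 from 60 to 360 days, with SDs of 0.0461 to 0.160 (n = 3). None of 3 tests passed (exact permutation adjusted p between 0.626 and 0.732).

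Type V relative to type I chains was lowest at 120 days. The summed FPKM of COL5A1, COL5A2 and COL5A3 divided by that of COL1A1 and COL1A2 was 0.0970 to 0.113 in the 3 pigs of 120 days and 0.136 to 0.505 in the other 15, without overlap. The geometric mean was 0.103 against 0.265, or 0.388-fold (exact permutation p = 0.00123, the smallest that the test can give, adjusted p = 0.0165). The stage means were 0.237 at 60 days, 0.103 at 120 days, 0.236 at 180 days, 0.381 at 240 days, 0.281 at 300 days and 0.275 at 360 days. At 240 days the 3 full sibs ranged from 0.152 (replicate 1) to 0.505 (replicate 3), a wider gap than that between most ages.

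Within type V the ratio of COL5A3 to COL5A1 was lower at 120 days as well. COL5A3 exceeded COL5A1 by 1.02 to 1.53 times in the pigs of 120 days and by 1.92 to 4.14 times in the others (geometric mean 1.28 against 2.87, 0.446-fold, exact permutation p = 0.00123, adjusted p = 0.0165). COL5A1 per COL1A1 was 0.0551 to 0.0666 at 120 days and 0.0676 to 0.157 elsewhere (geometric mean 0.0622 against 0.0997, 0.625-fold, exact permutation p = 0.00490, adjusted p = 0.0441). The gap between the highest pig of 120 days and the lowest other pig was narrow for COL5A1 per COL1A1, and this adjusted p was above 0.05 in 13 of 18 tests that left out 1 library. Without the 7 libraries low in Y-linked genes the log2 differences of these 3 ratios were -1.39 (type V per type I), -1.30 (COL5A3 per COL5A1) and -0.66 (COL5A1 per COL1A1), each with an adjusted p of 0.245 in the exact permutation test of 2 libraries against 9, whose smallest p is 0.0182. COL5A1 to COL5A2 was 1.44 to 1.68 at 120 days and 0.750 to 1.04 at 60 days, but overlapped the other ages, and none of its 3 tests passed (exact permutation adjusted p of at least 0.240).

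Type III relative to type I had its lowest stage mean at 120 days, with overlap. COL3A1 was 1.39 to 2.05 times COL1A1 at 120 days and 1.39 to 3.48 times in the other libraries (exact permutation adjusted p = 0.105). The same comparison per COL1A2 gave 1.75 to 2.62 against 1.89 to 4.20 (exact permutation adjusted p = 0.0927). COL5A2 per COL3A1 was 0.0225 to 0.0249 at 120 days and 0.0194 to 0.0506 elsewhere, the lowest value being that of 180 days replicate 1 (exact permutation adjusted p = 0.0827). COL11A1 per COL5A1 ranged over 65.4-fold between libraries, and none of its 3 tests passed (exact permutation adjusted p between 0.353 and 0.664). At 60 and at 360 days no ratio passed.

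Across the 18 libraries COL1A2, COL5A1 and COL3A1 followed COL1A1 most closely and COL5A3 least. As a description over libraries that share their ages and litters, Pearson's r of log2 FPKM with COL1A1 was 0.991 for COL1A2, 0.965 for COL5A1, 0.923 for COL3A1, 0.764 for COL5A2, 0.667 for COL11A1 and 0.375 for COL5A3. After the mean of each age was subtracted it was 0.987 for COL1A2, 0.935 for COL5A1 and 0.832 for COL3A1, but 0.442 for COL5A2, 0.389 for COL11A1 and 0.288 for COL5A3. Pigs within an age thus varied together in type I, type III and COL5A1, and less so in COL5A2, COL11A1 and COL5A3. Differences between ages made up 85.7% of the log2 variance of COL5A2, the highest of the 7, and 61.7 to 75.0% of that of the other chains.

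**Figure D4:**
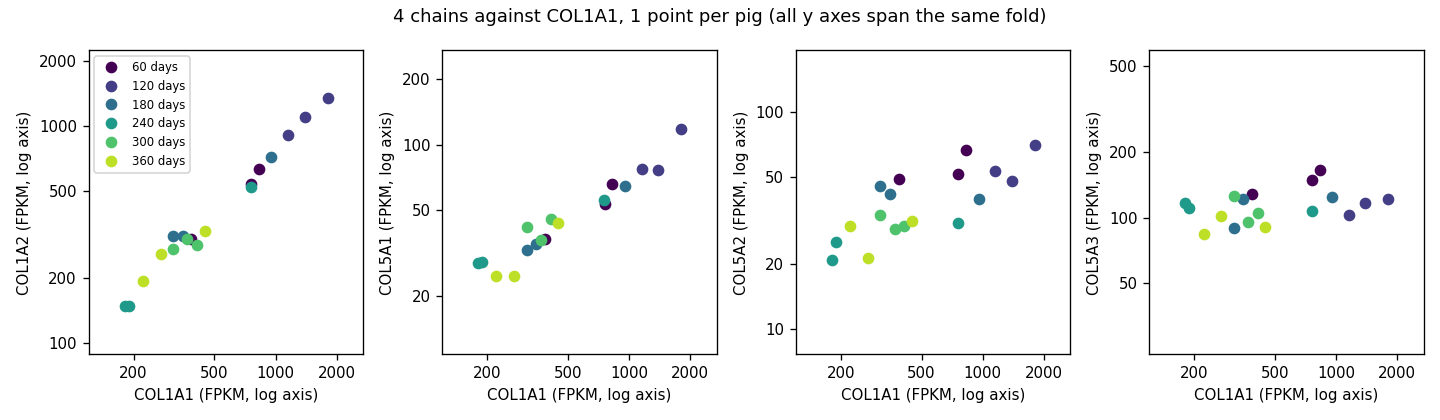
FPKM of COL1A2, COL5A1, COL5A2 and COL5A3 (y) against COL1A1 (x), both on log axes, with 1 point per pig coloured by age and the same fold range on every y axis. COL1A2 and COL5A1 followed COL1A1 closely (r of log2 FPKM 0.991 and 0.965), COL5A2 separated by age at a given COL1A1 level, and COL5A3 stayed nearly level (r 0.375).

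The loci most like COL1A1, COL1A2 and COL3A1 were sought among 10084 protein-coding loci by the mean r of log2(FPKM + 0.1) over 18 libraries. They were C1QTNF6 (0.941), GALNT5 (0.901), GPX7 (0.895), POSTN (0.886), FKBP10 (0.886), FRMD6 (0.882), GP9 (0.881), OLFML2B (0.872), SDK1 (0.869) and CRABP2 (0.867). POSTN encodes the matricellular protein periostin, FKBP10 a collagen chaperone and GPX7 a peroxidase of the endoplasmic reticulum. COL5A1 was most like GALNT5 (0.931), C1QTNF6 (0.924) and CRABP2 (0.916). COL5A2 was most like SPARC (0.933), a collagen-binding matricellular protein, and then NREP (0.928) and SRPX (0.918). COL5A3 had a different set, the locus of CNOT3 and PRPF31 (0.866), SLC7A8 (0.864) and TRIL (0.855). Among these loci GALNT5, GP9 and SLC7A8 were near the filter of 0.5 FPKM, with means of 0.6, 0.473 and 0.511 FPKM.

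COL11A1 was most like TNMD (0.870), a gene of tendon that adipose tissue also expresses, COL11A2 (0.844), a partner chain of type XI, and PLCD3 (0.841). TNMD had means of 1.25 FPKM at 60 days, 2.12 at 120 days and 0.021 at 180 days, and reached 3.76 FPKM in its highest pig of 240 days. COL2A1, the main cartilage chain, had a mean of 0.416 FPKM over the 18 libraries. Markers of cartilage and bone (4 of 6 listed in the table) summed to 1.94 FPKM in 240 days replicate 1, to 0.354 to 1.79 FPKM at 120 days and to at most 1.14 FPKM elsewhere, and IBSP was close to 0 (mean 0.00123 FPKM). Their part in the level of COL11A1 was not tested.

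Among genes of the same pathway, several proteins that coat or bridge fibrils were called higher at 120 days than at the other ages. Of 14 tested genes of 17 listed 5 were called higher and 0 lower, against 0.94% of all loci, and their median log2 fold change was 1.07 against 0.00 over all loci. They were DPT (1.51), COL14A1 (1.39), COL6A3 (1.23), ASPN (1.03) and DCN (1.02), where the numbers are log2 fold changes. DPT and DCN bind collagen fibrils, COL14A1 is a fibril-associated collagen and COL6A3 a chain of the microfibrils of type VI. DPT and DCN also stand in the fibroblast list above, and DCN, COL6A3 and COL14A1 were selected by the study on these libraries.

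Of the enzymes and chaperones that make and join the chains, FKBP10 alone was called at 120 days. Of 19 folding and hydroxylation genes 1 passed, FKBP10 with a log2 fold change of 1.47 ± 0.31 (SE, edgeR adjusted p = 0.0277), and the list had a median of 0.20. Of 5 crosslinking genes 0 were called in edgeR and 2 had an unadjusted p under 0.05, and the lowest p belonged to the lysyl oxidase gene LOX (log2 fold change 1.01 ± 0.28, SE, edgeR adjusted p = 0.0808). In edgeR 0 of 6 secretion genes, 8 propeptide processing genes, 7 breakdown genes and 8 receptor genes were called at 120 days, and the number with an unadjusted p under 0.05 was 2, 3, 3 and 4, where 16.7% of all loci had such a p. Of the 3 other fibrillar chains tested, COL11A2 was called higher (log2 fold change 2.55 ± 0.62, SE, edgeR adjusted p = 0.0490) at stage means of 0.542 FPKM or less. It was also called higher at 60 days against the other ages (log2 fold change 2.30 ± 0.63, SE, edgeR adjusted p = 0.0399). The pigs of 120 days spanned 0.0859 to 0.895 FPKM of COL11A2, and no pig from 180 days on exceeded 0.449 FPKM. COL11A2 thus passed the filter of 0.5 FPKM only through pigs of 60 and 120 days. Its calls at these ages are therefore not separate evidence.

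Along age, SPARC and DPT of 14 fibril surface genes and COL11A2 of 3 other fibrillar chains fell, while TLL2 of 8 processing genes and TIMP1 of 7 breakdown genes rose, against 4.79% of all loci called. SPARC fell by 1.04 on the log2 scale per 300 days (edgeR adjusted p = 0.00272), DPT had a log2 fold change of -1.73 (edgeR adjusted p = 0.00352) and COL11A2 one of -3.70 (edgeR adjusted p = 0.0174). SPARC, at 973 ± 95.1 FPKM (SD, n = 3) at 120 days and 482 ± 94.4 FPKM (SD, n = 3) at 360 days, was below COL3A1 at both ages. In the opposite direction TLL2, a propeptide-processing protease, had a log2 fold change of 2.81 (edgeR adjusted p = 0.0185). Its stage means were low, between 0.139 and 0.807 FPKM. No pig of 60 or 120 days exceeded 0.329 FPKM of TLL2, which thus passed the filter of 0.5 FPKM only through older pigs. COL11A2 passed it only through pigs of 60 and 120 days. The calls of TLL2 and COL11A2 along age are therefore not separate evidence. The collagenase inhibitor TIMP1 had a log2 fold change of 1.27 (edgeR adjusted p = 0.0345). Along age 0 folding, secretion, crosslinking or receptor genes were called in edgeR, and 6 of 19, 3 of 6, 0 of 5 and 4 of 8 had an unadjusted p under 0.05, where 29.4% of all loci did.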

How the data were processed

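Total RNA of 18 backfat samples was depleted of ribosomal RNA and sequenced as paired reads. The authors trimmed the reads with Cutadapt, aligned them to Sscrofa11.1 with Hisat2 and used StringTie to assemble loci and to estimate FPKM for each locus and library. The deposited counts are raw whole numbers for each locus, and the tool that produced them is not given in the sources used here. Samples were grouped by the age in the labels, and 0 sample columns were left out.

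Counts were fitted with edgeR (version 4.0.16, quasi-likelihood test, TMM scaling) in R (version 4.3.3), with 18 libraries and 6 ages in 1 fit, or with age as a number for the trend. The common biological coefficient of variation was 0.34 with 12 residual degrees of freedom. Testing in 9 comparisons was limited to loci that reached 0.5 FPKM in 3 or more libraries. A call needed a log2 fold change of 1 or more in either direction and an adjusted p no higher than 0.05, the thresholds of the study. Standard errors are the fold change over the root of the F statistic. Ratios of FPKM were tested by exact permutation in Python (version 3.11.15; numpy version 2.4.6), 2-sided. Alternatives were other filters and scaling, DESeq2 (version 1.42.0), limma (version 3.58.1) on log2(FPKM + 0.1) and on log2(FPKM + 1), a replicate block, a covariate for the Y-linked level, fits on the compared ages alone and each library left out, and some exclusions were added after the values were seen. The fit was tested on simulated data.

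The chain genes and the lists were chosen with earlier results of these data known. The named genes are the 7 chains, the 10 loci most like the major chains and the 3 most like each minor chain, and the called members of each list or else its member with the lowest p. Precision is set by 3 pigs per age, which the methods describe as full sibs, and not by depth (median 78364890.5 counts).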

Additional observations from a re-analysis of the deposited data

How the results depend on the processing

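At 120 days against the other ages 4 of 7 chains were called with every other filter, scaling, tool and covariate tried on all libraries, between 0 and 5 when 1 library was left out, and 0 without the 7 libraries low in Y-linked genes, an exclusion chosen after seeing the data that also drops 7 of 18 libraries. Along age the count was 4 in edgeR, 6 with DESeq2 and with limma at either pseudocount, 5 with the replicate block (COL5A1 was added) and 5 with the Y-linked covariate. It was between 1 and 5 when 1 library was left out, 1 without the 7 libraries and 0 without those of 120 days, the latter exclusions chosen after seeing the data. At 360 against 60 days it was 0 in edgeR, 2 with limma at pseudocount 0.1 and also 2 at pseudocount 1, and 1 with the Y-linked covariate. The cause of these differences was not tested. Fits that left libraries out also rest on fewer libraries, and the part of this was not tested either.

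Replicate numbers did not pair the pigs. Residuals of libraries with equal numbers correlated by 0.01 on average and those of other libraries by -0.005, and for 6 of 18 libraries the closest residual profile was one of the same number. The block changed no count of called chains other than that along age.

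When 1 library was left out, the log2 fold change of COL5A3 at 120 days against the other ages lay between -0.054 and 0.05 (0.013 with limma at both pseudocounts), that of COL5A3 at 180 against 120 days between -0.11 and 0.11 and that of COL5A2 at 120 against 60 days between -0.04 and 0.27, so these have no fixed sign. Of all 63 chain fold changes 17 changed sign in some alternative. The log2 fold changes at 120 days ranged from 1.55 to 1.93 (COL1A1), 1.56 to 1.87 (COL1A2), 1.06 to 1.36 (COL3A1) and 0.91 to 1.25 (COL5A1) in these fits.

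Of the ratios at 120 days, the log2 difference of COL5A3 per COL5A1 lay between -1.29 and -1.004 with 1 library left out, that of type V per type I between -1.44 and -1.30 and that of COL5A1 per COL1A1 between -0.73 and -0.59. The first pair of these lost its call only without a library of 120 days, where the smallest p of 2 against 15 libraries is 0.00735. Without the 7 libraries they were -1.30, -1.39 and -0.66, each with an exact permutation adjusted p of 0.245. COL3A1 per COL1A1 (-0.74 to -0.46), COL3A1 per COL1A2 (-0.67 to -0.39) and COL5A2 per COL3A1 (-0.61 to -0.51) passed in some of these fits. At 60 days type V per type I was 0.04, between -0.17 and 0.17 with 1 library left out and -0.21 without the 7 libraries, and COL3A1 per COL1A1 lay between -0.067 and 0.28. At 360 days COL11A1 per COL5A1 lay between -1.79 and 0.58, COL3A1 per COL1A1 between -0.20 and 0.28, COL5A1 per COL5A2 between -0.30 and 0.068 and COL3A1 per COL1A2 between -0.29 and 0.25.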
